A study of Mus musculus with 13 samples.

Results

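The ATF4-CHOP stress response effectors described here are 9 genes, Nupr1, Trib3, Ddit4, Sesn2, Chac1, Atf3, Ppp1r15a, Cebpb and Slc3a2, out of 18820 genes measured in mouse liver. They were taken from a fixed list of names. Each was represented by the array feature that carried its symbol alone, and all 9 had exactly 1 such feature. The livers came from mice on the C57BL/6J background, either wild type or LiSel1lKO, in which floxed Sel1l is deleted by Cre recombinase under the albumin promoter. At 3 weeks of age there were 3 wild-type and 4 LiSel1lKO livers, and at 9 weeks 3 of each genotype. All mice had been fasted in the morning. The albumin promoter is active mainly in hepatocytes, and which other liver cells lost Sel1l was not measured. Sex, and whether the wild-type mice carried floxed alleles, were not given in the labels. Each liver was run on 1 whole-transcript array, and values are log2 expression.

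Sel1l holds the ubiquitin ligase Hrd1 in the complex that clears misfolded proteins out of the endoplasmic reticulum. When such proteins build up, the kinase PERK phosphorylates the translation factor eIF2alpha. General translation then slows while the mRNA of the transcription factor ATF4 is translated more. ATF4 induces a second factor, CHOP (gene Ddit3), and both act on genes of amino acid supply, redox control, growth arrest and cell death. Other kinases feed into the same step, which is why it is also called the integrated stress response. The 9 effectors span its outputs: the regulators Nupr1, Atf3 and Cebpb, the pseudokinase Trib3, the growth brakes Ddit4 and Sesn2, the glutathione-degrading enzyme Chac1, the phosphatase subunit Ppp1r15a, which reverses eIF2alpha phosphorylation, and the amino acid transporter chain Slc3a2.

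ATF4 binds DNA together with C/EBP proteins at a composite element whose core reads TTGCATCA. Promoter windows from RefSeq (build GRCm38.p6), from 250 bases before to 50 bases after each gene start, were matched by symbol for 9 of the 9 effectors, 1 window each. Both strands were searched for TTGCATCA, for the cyclic AMP response element TGACGTCA, for the AP-1 site TGANTCA and for the ER stress response element. The composite element was in the windows of 3 of the 9 (Nupr1, Atf3 and Chac1), against 294 (0.895%) of all 32851 windows. It starts 110 bases before the gene start in both Nupr1 and Atf3, and 193 bases before it in Chac1. The cyclic AMP response element was in 1 window, that of Ppp1r15a, against 1.79% of all windows. The other 2 motifs were in 0 of the 9, against 7.81% (AP-1) and 0.119% (ER stress response element) of all windows. The 4 windows with a match held 1 motif each, so different motifs could not overlap. The 250 bases before the start are shown for these 4 genes, since the 3 carriers of the composite element differ in their response below. Capitals mark the motif, and strands are those of the genes.
Nupr1 (chr7:126625471-126625720, minus strand): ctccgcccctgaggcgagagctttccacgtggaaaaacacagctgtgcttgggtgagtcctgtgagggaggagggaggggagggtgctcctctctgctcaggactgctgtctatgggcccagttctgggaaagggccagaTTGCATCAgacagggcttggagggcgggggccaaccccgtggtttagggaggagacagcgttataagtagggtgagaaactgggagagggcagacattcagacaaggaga
Atf3 (chr1:191183334-191183583, minus strand): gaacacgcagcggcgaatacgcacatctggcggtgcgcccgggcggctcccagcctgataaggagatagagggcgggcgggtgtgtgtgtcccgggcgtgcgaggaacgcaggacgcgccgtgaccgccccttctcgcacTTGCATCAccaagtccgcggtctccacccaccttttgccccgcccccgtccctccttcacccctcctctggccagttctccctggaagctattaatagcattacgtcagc
Chac1 (chr2:119350992-119351241, plus strand): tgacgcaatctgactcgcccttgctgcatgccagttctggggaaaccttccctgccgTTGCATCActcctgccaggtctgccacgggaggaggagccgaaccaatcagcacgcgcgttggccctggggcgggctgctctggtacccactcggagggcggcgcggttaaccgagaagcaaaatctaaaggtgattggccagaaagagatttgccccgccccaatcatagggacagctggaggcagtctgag
Ppp1r15a (chr7:45526269-45526518, minus strand): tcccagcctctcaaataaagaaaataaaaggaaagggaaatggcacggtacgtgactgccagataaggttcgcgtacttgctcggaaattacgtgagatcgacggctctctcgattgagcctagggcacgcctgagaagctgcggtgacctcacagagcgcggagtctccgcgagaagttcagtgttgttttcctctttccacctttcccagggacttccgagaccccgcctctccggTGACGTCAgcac
A match in these letters is a description of the sequence. Binding was not measured.

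Sel1l itself was the check of the labels. It stood at 8.94, 8.77 and 8.85 in wild type and 8.42, 7.90, 7.20 and 7.10 in LiSel1lKO at 3 weeks, and at 8.78, 8.70 and 8.72 against 7.90, 7.54 and 7.72 at 9 weeks. The groups did not overlap at either age, and over both ages the Sel1l difference was -1.11 ± 0.19 (log2, SE), which passed limma's test (adjusted p = 0.0269). At each age alone Sel1l did not pass that test, with -1.02 at 9 weeks (adjusted p = 0.108) and -1.21 at 3 weeks (adjusted p = 0.391). All differences were tested with limma; p-values were adjusted across the 35556 array features (Benjamini-Hochberg) and those under 0.05 are called. Hepatocyte markers (9 of 10 measured) averaged 12.2 to 12.4 in all 13 livers, so the tissue was liver by its defining transcripts. The LiSel1lKO minus wild-type difference lay below 0 for 8 of these 9 at 9 weeks (median -0.11). At 3 weeks it did so for 3 of the 9, and 0 were called at either age. Of all features 0% were called at 3 weeks, and 1.03% higher and 0.484% lower at 9 weeks. The sources do not say that the livers of a group came from separate litters, and the p-values measure the spread between these livers.

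At 9 weeks Nupr1, Trib3 and Ddit4 rose in LiSel1lKO liver, while Atf3 and Slc3a2 were higher without passing the test. Sesn2, Chac1, Ppp1r15a and Cebpb overlapped with wild type. Thus 3 of the 9 effectors were called higher and 0 lower, against 1.03% of all features called higher and 0.484% called lower. For 5 of the 9 every LiSel1lKO liver was above every wild-type liver, against 9.89% of all features, and the same 5 had an unadjusted p under 0.05, against 13.9%. The median log2 difference of the 9 was 0.58, against -0.0071 over all features. At 3 weeks 0 of the 9 were called by limma, as were 0% of all features. Of the 9, 2 had an unadjusted p under 0.05 there (Nupr1 and Trib3), against 7.41% of all features, and 1 (Nupr1) had LiSel1lKO livers all above wild type, against 3.88%. The median difference was -0.072, against 0.0038 over all features. Averaged over both ages, 2 of the 9 (Nupr1 and Trib3) were called higher, against 0.655% of all features.

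**Figure D1:**
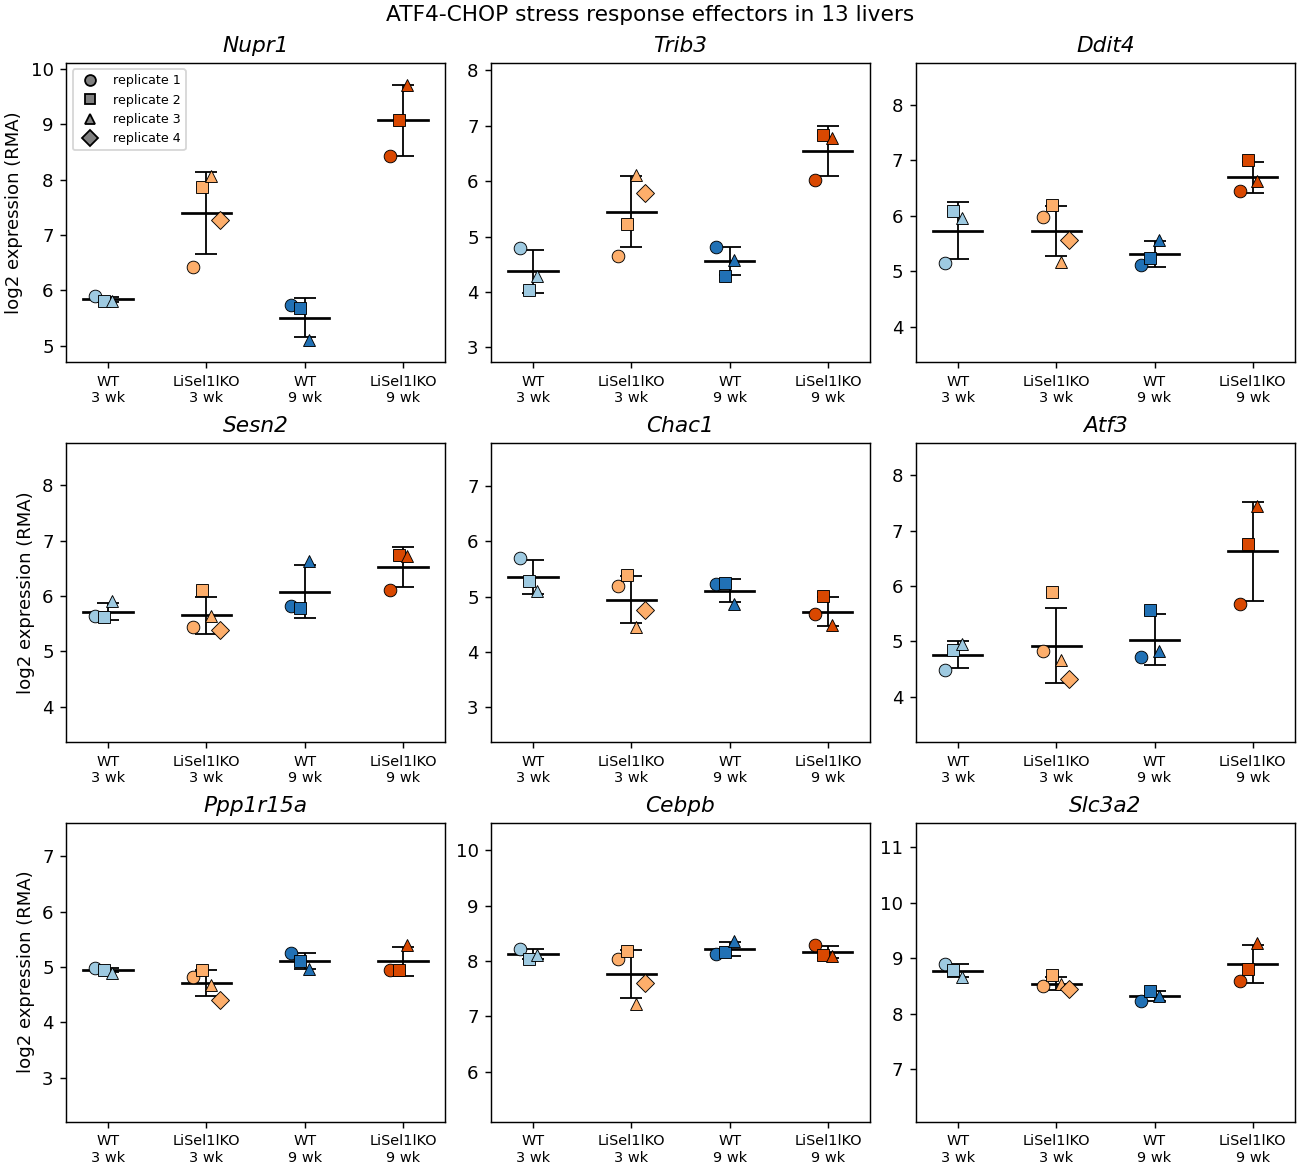
Log2 expression (RMA) of the 9 effectors, 1 panel per gene, in wild-type (WT) and LiSel1lKO livers at 3 and 9 weeks. Points are livers, shaped by replicate number; horizontal bars are group means and whiskers 1 SD (n = 3, 4, 3 and 3), and every panel spans the same number of log2 units. The 3 LiSel1lKO livers at 9 weeks lie above all wild-type livers of that age for Nupr1, Trib3, Ddit4, Atf3 and Slc3a2.

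Among the regulators, Nupr1 encodes a small chromatin-associated protein induced by many stresses. Wild-type livers stood at 5.90, 5.81 and 5.80 at 3 weeks and at 5.74, 5.68 and 5.10 at 9 weeks. LiSel1lKO livers stood at 6.41, 7.86, 8.06 and 7.27 at 3 weeks and at 8.43, 9.08 and 9.70 at 9 weeks. Each LiSel1lKO liver was thus above every wild-type liver of its age, and the 9-week LiSel1lKO livers were also above all 3-week ones. The 9-week difference was 3.56 ± 0.41 (SE; 95% interval 2.67 to 4.45; adjusted p = 0.00756). The 3-week difference was 1.57 (interval 0.73 to 2.40; adjusted p = 0.418), and over both ages Nupr1 rose by 2.56 ± 0.28 (adjusted p = 0.00678), a 5.92-fold change. The 9-week call held with each of the 13 livers left out in turn (adjusted p between 0.00187 and 0.0462). Fitted on the 6 livers of that age alone, the adjusted p was 0.114, and 1 of 35556 features was called.

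Atf3 encodes a bZIP factor that is switched on quickly by stress and can repress its targets. At 3 weeks its values were 4.48, 4.85 and 4.95 in wild type and 4.82, 5.89, 4.66 and 4.32 in LiSel1lKO, where replicate 2 alone stood above the wild-type range and replicate 4 below it. At 9 weeks they were 4.71, 5.56 and 4.83 against 5.68, 6.76 and 7.45. The 9-week groups did not overlap, but the lowest LiSel1lKO liver, at 5.68, lay close to the highest wild type, at 5.56. The difference of 1.59 ± 0.46 (SE; interval 0.58 to 2.60) missed the threshold (adjusted p = 0.127). With 1 liver left out in turn it ran from 1.18 (without 9-week LiSel1lKO replicate 3) to 2.07 (without replicate 1), and the adjusted p from 0.0277 (without replicate 1, the 1 of 13 fits that passed) to 0.375. Fitted on the 9-week livers alone, the adjusted p was 0.278.

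Cebpb encodes C/EBPbeta, a bZIP partner of ATF4 that is abundant in liver. Its 9-week values were 8.12, 8.16 and 8.37 in wild type and 8.29, 8.11 and 8.09 in LiSel1lKO. These overlapped, and the interval of the difference ran from -0.50 to 0.39 (adjusted p = 0.944). At 3 weeks it stood at 8.21, 8.03 and 8.11 in wild type and, in LiSel1lKO, at 8.04, 8.18, 7.23 and 7.60, with replicates 3 and 4 below all other livers. That difference was -0.36 (interval -0.77 to 0.06; adjusted p = 0.720).

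Trib3, a pseudokinase that binds ATF4 and the kinase AKT, rose at 9 weeks. Wild-type livers stood at 4.81, 4.29 and 4.58 and LiSel1lKO livers at 6.03, 6.83 and 6.78, with a gap of more than 1 log2 unit between the groups. The difference was 1.99 ± 0.35 (SE; interval 1.21 to 2.77; adjusted p = 0.0249). The 3-week values were 4.80, 4.04 and 4.29 in wild type and 4.66, 5.23, 6.11 and 5.79 in LiSel1lKO, so replicate 1 lay within the wild-type range and the other 3 above it. Its 3-week difference was 1.07 (interval 0.34 to 1.80; adjusted p = 0.515), and over both ages Trib3 rose by 1.53 ± 0.24 (adjusted p = 0.0210). The 9-week call ended when any 1 of the 3 wild-type livers of that age or LiSel1lKO replicate 2 or 3 was left out (adjusted p 0.0699, 0.0983 and 0.0623 for wild-type replicates 1 to 3, and 0.114 and 0.117). Fitted on the 9-week livers alone, the adjusted p was 0.135. The call over both ages also ended without 3-week wild-type replicate 2 or 3, 9-week wild-type replicate 2, or 9-week LiSel1lKO replicate 2 or 3 (adjusted p between 0.0548 and 0.0678).

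Both growth brakes act on the kinase complex mTORC1. Ddit4, also called REDD1, stood at 5.11, 5.24 and 5.57 in wild type and 6.46, 7.01 and 6.64 in LiSel1lKO at 9 weeks. The lowest LiSel1lKO liver was above every wild-type liver of both ages. Ddit4 rose by 1.39 ± 0.29 (SE; interval 0.75 to 2.04; adjusted p = 0.0449). At 3 weeks it stood at 5.14, 6.08 and 5.97 in wild type and, in LiSel1lKO, at 5.98, 6.19, 5.17 and 5.57, with LiSel1lKO replicate 2 just above the wild-type range and the others within it, and the difference was -0.0038 (interval -0.61 to 0.60; adjusted p = 0.999). The 9-week call lies near the threshold. It ended with 8 of the 13 livers left out in turn: 3-week wild-type replicate 3, 3-week LiSel1lKO replicates 1 and 4, all 3 wild-type livers at 9 weeks, and 9-week LiSel1lKO replicates 2 and 3 (adjusted p between 0.0599 and 0.184). It also ended in the fit of the 9-week livers alone (adjusted p = 0.139), with the plate column as a block (0.0652) and after a further quantile normalization (0.0522).

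Sesn2, a leucine sensor of the sestrin family, gave 5.81, 5.79 and 6.63 in wild type and 6.10, 6.74 and 6.72 in LiSel1lKO at 9 weeks. Wild-type replicate 3 lay among the LiSel1lKO livers. The difference was 0.44 (interval -0.14 to 1.02; adjusted p = 0.506). At 3 weeks it stood at 5.63, 5.62 and 5.90 in wild type and, in LiSel1lKO, at 5.44, 6.12, 5.64 and 5.39, with LiSel1lKO livers on both sides of wild type. That difference was -0.072 (interval -0.61 to 0.47; adjusted p = 0.968).

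Chac1, whose enzyme degrades glutathione, lay lower rather than higher in LiSel1lKO liver, although its promoter carries the same composite element as those of Nupr1 and Atf3. At 9 weeks it stood at 5.22, 5.24 and 4.87 in wild type and 4.69, 5.01 and 4.49 in LiSel1lKO. At 3 weeks it stood at 5.70, 5.27 and 5.10 against 5.19, 5.39, 4.45 and 4.75. The groups overlapped at both ages, with replicates 3 and 4 lowest at 3 weeks. The differences were -0.38 (interval -0.92 to 0.16) and -0.41 (interval -0.92 to 0.09), and over both ages -0.40 (interval -0.76 to -0.03; adjusted p = 0.352), which did not pass. The interval at 9 weeks thus excludes a rise of the size seen for Nupr1, Trib3 or Ddit4.

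Ppp1r15a, also called GADD34, stood at 5.26, 5.12 and 4.96 in wild type and 4.95, 4.95 and 5.40 in LiSel1lKO at 9 weeks. Its 3-week values were 4.99, 4.95 and 4.90 against 4.82, 4.95, 4.67 and 4.41. The groups overlapped at both ages, and 3-week LiSel1lKO replicates 3 and 4 were the lowest livers. The differences were -0.0084 (interval -0.35 to 0.33; adjusted p = 0.991) and -0.23 (interval -0.55 to 0.08; adjusted p = 0.761). The same value, 4.9501, was given for replicate 2 of both genotypes at 3 weeks and for LiSel1lKO replicates 1 and 2 at 9 weeks. The 9-week interval ends at 0.33 log2 units, but it rests in part on these equal values. Their origin was not tested.

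Slc3a2, the heavy chain (CD98) that pairs with several amino acid transporters, gave differences of opposite sign at the 2 ages. At 3 weeks it stood at 8.89, 8.79 and 8.65 in wild type and 8.49, 8.70, 8.53 and 8.45 in LiSel1lKO. At 9 weeks it stood at 8.23, 8.40 and 8.31 against 8.59, 8.81 and 9.27. All 4 younger LiSel1lKO livers lay below the wild-type mean of their age, though replicate 2 overlapped, and all 3 older ones lay above every wild-type liver of 9 weeks. The 9-week difference was 0.58 ± 0.15 (SE; interval 0.25 to 0.90; adjusted p = 0.0898) and the 3-week one -0.23 (interval -0.54 to 0.07; adjusted p = 0.755). With 1 liver left out in turn the 9-week difference ran from 0.39 (without LiSel1lKO replicate 3) to 0.73 (without replicate 1), and the adjusted p from 0.0203 (without replicate 1, the 1 of 13 fits that passed) to 0.221. It passed with array weights (adjusted p = 0.0410) and in a test limited to single-symbol features (0.0492), and did not with the plate column as a block (0.147) or in the 9-week livers alone (0.297).

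**Figure D2:**
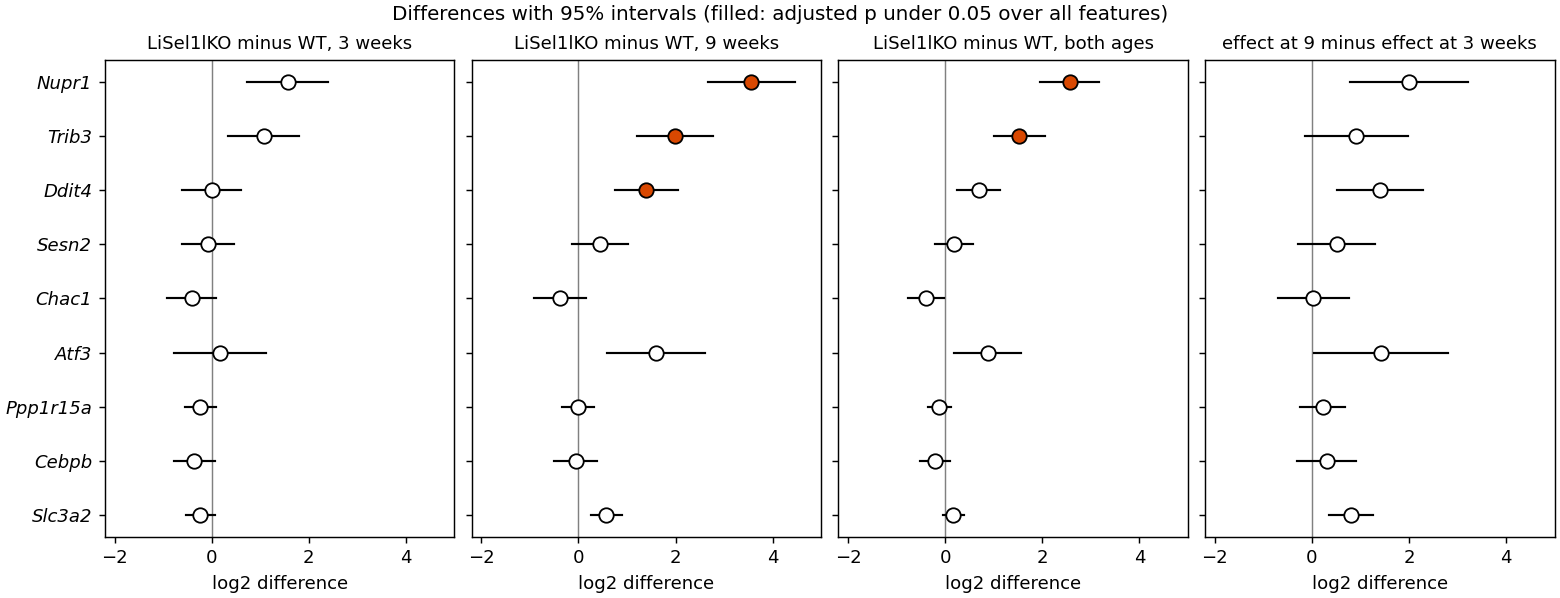
Log2 differences of the 9 effectors between LiSel1lKO and WT at 3 weeks, at 9 weeks and averaged over both ages, and the 9-week minus the 3-week effect. Points are limma estimates and lines their 95% intervals; filled points have an adjusted p under 0.05 over all features. Filled points are Nupr1, Trib3 and Ddit4 at 9 weeks, and Nupr1 and Trib3 over both ages; in the last panel all 9 points lie above 0 and 0 are filled.

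Whether the effect of LiSel1lKO differed between the ages was tested as an interaction. The 9-week minus 3-week effect was above 0 for 9 of the 9 effectors, with a median of 0.81 against -0.0067 over all features. It was called by limma for 0 of them, as for 0% of all features, and 4 of the 9 had an unadjusted p under 0.05, against 9.73% of all features. These were Nupr1 (2.00 ± 0.56, SE; adjusted p = 0.313), Ddit4 (1.40 ± 0.40; adjusted p = 0.335), Atf3 (1.43 ± 0.63; adjusted p = 0.500) and Slc3a2 (0.81 ± 0.20; adjusted p = 0.265). For Chac1 the interaction was 0.034 (interval -0.70 to 0.77), and its sign turned with array weights (-0.05), with the replicate block (-0.03) and with some single livers left out. The effects at the 2 ages use different livers.

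In wild type between 3 and 9 weeks 0 of the 9 were called by limma, against 1.89% of all features. Only Slc3a2 had an unadjusted p under 0.05 among them, with a difference of -0.46 (interval -0.79 to -0.14; adjusted p = 0.174), while 13.6% of all features had such a p. For 2 of the 9, Slc3a2 and Nupr1, every older wild-type liver was below every younger one, against 9.38% of all features. In LiSel1lKO liver 0 of the 9 were called by limma with age, against 0.155% of all features. There 8 of the 9 lay above 0 and 7 had an unadjusted p under 0.05, against 10.1% of all features. Nupr1 and Ddit4 were higher in every older than in every younger liver, against 4.67% of all features. The largest were Atf3 (1.70, interval 0.76 to 2.65; adjusted p = 0.176) and Nupr1 (1.67, interval 0.83 to 2.50; adjusted p = 0.131). These ageing differences share their livers with the genotype comparisons and are no separate evidence.

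Livers of a group differed from each other in ways that split the effectors. Relative to the wild-type mean of their age, 3-week LiSel1lKO replicates 3 and 4 were at 1.74 and 1.41 for Trib3 and 2.23 and 1.44 for Nupr1. The same livers were at -0.89 and -0.52 for Cebpb, -0.91 and -0.60 for Chac1 and -0.56 and -0.16 for Ddit4. Replicate 2 was at 2.03 for Nupr1 and 1.13 for Atf3, and was the only one of the 4 livers with Sesn2 above 0. Replicate 1 was closest to wild type for Nupr1 (0.58) and Trib3 (0.28). In Sel1l, replicates 1 to 4 were at -0.44, -0.96, -1.66 and -1.76, so replicate 1 had the most Sel1l left and the least Nupr1 and Trib3 of the 4. These are 4 livers, and no relation was tested.

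**Figure D3:**
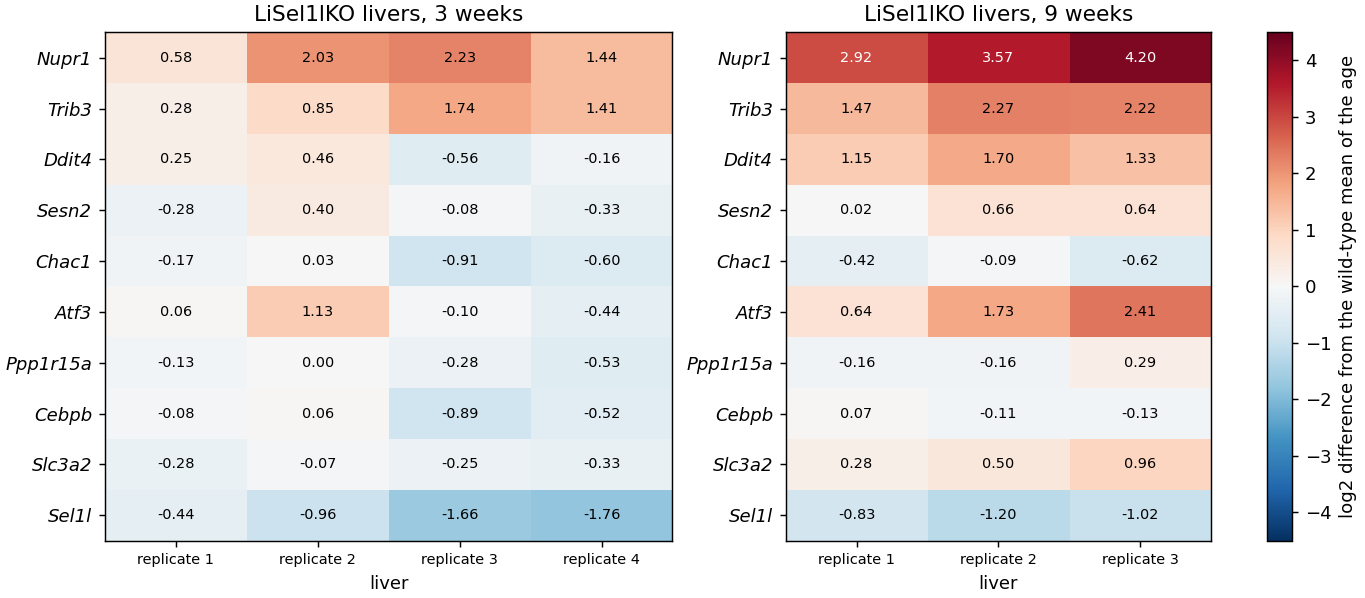
Difference of each LiSel1lKO liver from the wild-type mean of its age, in log2 units, for the 9 effectors and Sel1l at 3 weeks (4 livers) and 9 weeks (3 livers); red is higher and blue lower than wild type. At 3 weeks Nupr1 and Trib3 are above 0 in all 4 livers while Cebpb and Chac1 are lowest in replicates 3 and 4; at 9 weeks Nupr1 (2.92 to 4.20) and Trib3 (1.47 to 2.27) are high in all 3.

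At 9 weeks LiSel1lKO replicate 1 was the lowest of the 3 livers for Nupr1 (2.92 against 3.57 and 4.20), Trib3 (1.47 against 2.27 and 2.22), Ddit4 (1.15 against 1.70 and 1.33), Atf3 (0.64 against 1.73 and 2.41), Sesn2 (0.02 against 0.66 and 0.64) and Slc3a2 (0.28 against 0.50 and 0.96). This liver also had the most Sel1l left of the 3, at -0.83 against -1.20 and -1.02, and no relation was tested. The same liver stood apart in Kupffer cell and macrophage markers. The mean of all 10 of them was 7.02 in it, against 8.14 and 8.13 in replicates 2 and 3 and 7.43, 7.89 and 7.74 in wild type. Nupr1 in this liver, at 8.43, was still above every wild-type liver of its age, and Trib3 and Ddit4 were above every wild type too. At 3 weeks the markers averaged 7.63 to 7.93 in LiSel1lKO and 8.12 to 8.23 in wild type, and 10 of 10 had a difference below 0. At 9 weeks 9 of 10 had one above 0. By limma 0 were called at either age, against 0% of all features at 3 weeks. At 9 weeks 1.03% of all features were called higher and 0.484% lower. The part of these cells in the differences was not tested. In whole liver, fewer cells of a type and less RNA per cell cannot be told apart.

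Monocyte and neutrophil markers (7 of 9 measured) averaged 3.64 to 3.75 in LiSel1lKO and 3.73 to 3.95 in wild type at 3 weeks, and 3.57 to 3.67 against 3.65 to 3.88 at 9 weeks, near the array medians of 3.72 to 3.81. Lymphocyte markers (7 of 8) averaged 3.28 to 3.92 over the 4 groups and bile duct markers (4 of 5) 3.75 to 4.32. Sinusoidal endothelial markers (8 of 8) averaged 7.77 to 7.87 in LiSel1lKO and 7.75 to 7.86 in wild type at 9 weeks, and 7.82 to 8.09 against 8.08 to 8.20 at 3 weeks. Stellate cell markers (8 of 8) averaged 6.40 to 6.61 against 6.33 to 7.50 at 9 weeks and 6.72 to 7.36 against 6.92 to 7.33 at 3 weeks. Erythroid markers (3 of 6) averaged, in LiSel1lKO, 3.92 to 4.77 against 4.70 to 5.72 in wild type at 3 weeks and 3.88 to 4.23 against 4.26 to 4.66 at 9 weeks. In both genotype comparisons by age 0 members of these lists were called. Of all features 0% were called at 3 weeks, and 1.03% higher and 0.484% lower at 9 weeks. At 3 weeks, 4 of 8 endothelial, 2 of 3 erythroid and 1 of 7 monocyte and neutrophil markers had an unadjusted p under 0.05. At 9 weeks 2 of 8 endothelial, 2 of 8 stellate, 2 of 7 lymphocyte and 1 of 3 erythroid markers had one. The shares of all features were 7.41% and 13.9%, and the remaining lists had 0. The part of these cells in the differences of the effectors was not tested.

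The array descriptions name 2 plate columns, 5 and 7, each holding livers of all 4 groups. Within columns 5 and 7 the 9-week difference was 3.39 and 3.65 for Nupr1, 2.12 and 2.13 for Trib3, 1.30 and 1.67 for Ddit4, 1.00 and 1.99 for Atf3 and 0.53 and 0.54 for Slc3a2. At 3 weeks it was 1.72 and 1.43 for Nupr1 and 0.96 and 1.35 for Trib3, while Ddit4 gave 0.32 and -0.51. Column 5 at 9 weeks and column 7 at 3 weeks held 1 wild-type liver each, and column 7 at 9 weeks held 1 LiSel1lKO liver.

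Upstream of the effectors, 1 gene was called at 9 weeks. Ddit3 and Atf5 had no feature with their symbol alone and were not analysed here. Atf4 stood at 6.73 ± 0.10 in wild type and 7.17 ± 0.17 in LiSel1lKO at 9 weeks (SD, n = 3 each), without overlap. Its difference of 0.44 missed the threshold (adjusted p = 0.117). ATF4 is controlled largely at translation, which the array does not measure. Atf6, another sensor of the endoplasmic reticulum, rose by 0.55 ± 0.12 (SE; adjusted p = 0.0495). It was the 1 called higher of 5 measured transcription factors (median 0.24), against 1.03% of all features. This call held in 2 of the 13 fits with 1 liver left out. Of 5 measured genes around eIF2alpha 0 were called by limma at either age. Of all features 0% were called at 3 weeks, and 1.03% higher and 0.484% lower at 9 weeks. An unadjusted p under 0.05 was found for 1 (Eif2ak3) at 9 weeks, against 13.9% of all features. At 3 weeks it was found for 1 (Ppp1r15b), against 7.41%. Eif2ak3, which encodes PERK, differed by 1.05 ± 0.26 at 9 weeks (adjusted p = 0.0749) without overlap. Its 3-week groups did not overlap either, with a difference of 0.48 (interval -0.05 to 1.01; adjusted p = 0.696). Over both ages Eif2ak3 differed by 0.77 ± 0.18 (adjusted p = 0.0766). Ppp1r15b, the constitutive partner of the same phosphatase as Ppp1r15a, differed by -0.15 (interval -0.43 to 0.12) at 9 weeks. Its 3-week difference was -0.29 (interval -0.55 to -0.04; adjusted p = 0.633).

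Of the other targets of ATF4 and CHOP, 30 of 32 listed were measured. At 9 weeks 1 rose, against 1.03% of all features, and 1 fell, against 0.484%. An unadjusted p under 0.05 was found for 13 of the 30, against 13.9% of all features. The 9-week difference lay above 0 for 23, and the median was 0.30. At 3 weeks 0 were called by limma, 2 (Aldh18a1 and Vldlr) had an unadjusted p under 0.05, a share close to the 7.41% of all features, 14 lay above 0 and the median was -0.0075. Vldlr, a lipoprotein receptor that takes up triglyceride-rich particles, rose from 4.07 ± 0.24 to 5.46 ± 0.22 at 9 weeks (SD, n = 3 each; adjusted p = 0.0161) and by 1.01 ± 0.15 over both ages (SE; adjusted p = 0.0147). Its 9-week call held in 9 of the 13 fits with 1 liver left out, and ended without wild-type replicate 2 or 3 or LiSel1lKO replicate 2 or 3 of that age. Vegfa, an angiogenic factor, fell by 0.68 ± 0.14 (SE; adjusted p = 0.0400), a call that held in 3 of the 13. The composite element was in the promoter windows of 6 of the 26 listed targets with a window, Vldlr, Fgf21, Herpud1, Pycr1, Slc1a4 and Slc7a11. Pycr1 had no feature with its symbol alone, and the 9-week differences of the other 5 were 1.39, 2.96, 0.47, 0.55 and 0.02, of which that of Vldlr passed.

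Aminoacyl-tRNA synthetases, which charge tRNAs and are a known part of the ATF4 programme, gave 3 that rose of 11 measured at 9 weeks, against 1.03% of all features, with a median of 0.44. An unadjusted p under 0.05 was found for 6 of the 11, against 13.9% of all features. Sars rose by 0.72 ± 0.13 (SE; adjusted p = 0.0232), Iars by 0.60 ± 0.09 (adjusted p = 0.0147) and Gars by 0.50 ± 0.11 (adjusted p = 0.0490). With 1 liver left out in turn, these calls held in 8, 10 and 2 of 13 fits. At 3 weeks 0 of the 11 were called by limma, 2 (Eprs and Yars, with differences of opposite sign) had an unadjusted p under 0.05, against 7.41% of all features, and the median was -0.046. Over both ages Sars and Iars rose (adjusted p = 0.0320 and 0.0445), and these calls held in 2 and 1 of the 13 fits.

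**Figure D4:**
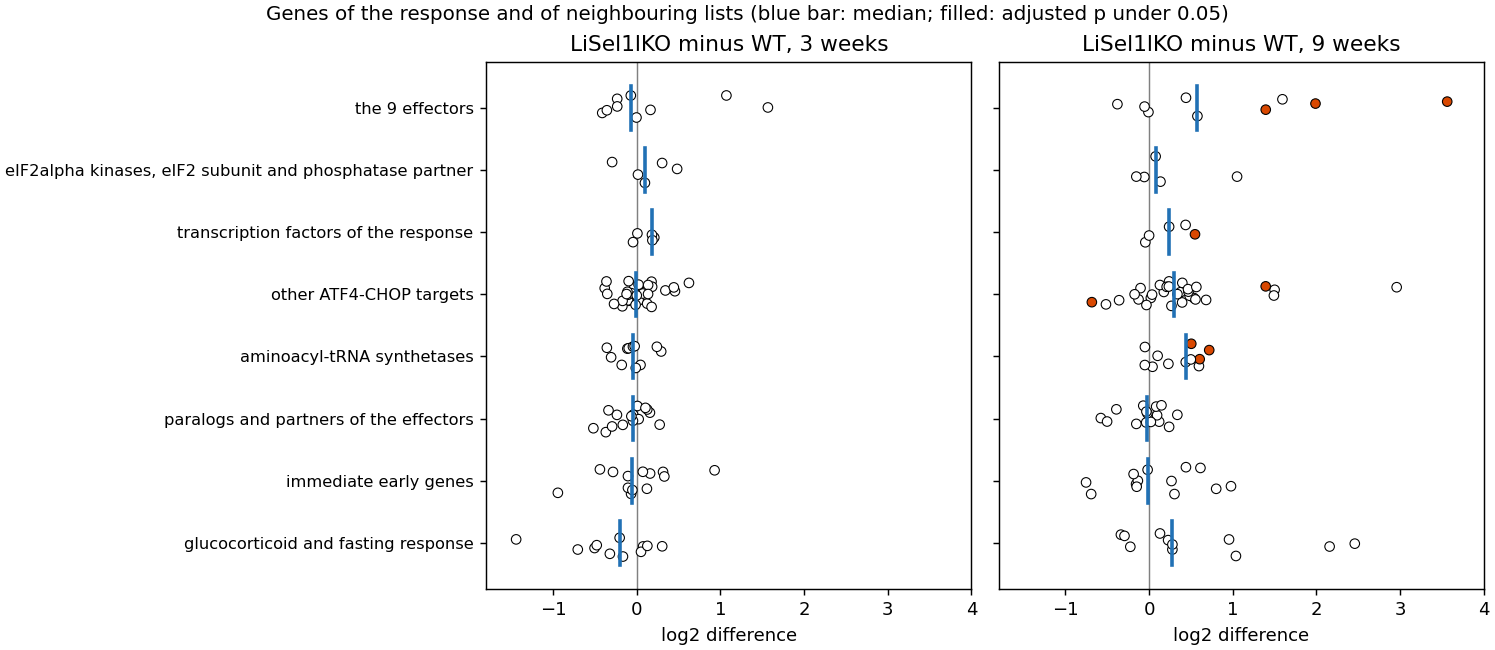
Log2 differences between LiSel1lKO and WT at 3 weeks (left) and 9 weeks (right) for the 9 effectors and 7 lists of related genes; each point is a gene, filled where the adjusted p over all features is under 0.05, and blue bars are medians. At 9 weeks the medians are 0.58 for the effectors, 0.44 for the synthetases, 0.30 for the other targets, 0.28 for the glucocorticoid and fasting genes, 0.24 for the transcription factors, 0.08 for the eIF2alpha genes, and -0.02 for both the paralogs and the immediate early genes.

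Of 15 measured paralogs and partners of the effectors 0 were called at 9 weeks by limma. This is near the shares of all features, 1.03% called higher and 0.484% called lower. The median of the 15 was -0.021. The 2 with the smallest p were Chac2, the paralog of Chac1 (-0.58, interval -0.97 to -0.18; adjusted p = 0.160), and Cebpa, the main C/EBP factor of mature hepatocytes (-0.50, interval -0.91 to -0.09; adjusted p = 0.243). At 9 weeks these were also the 2 of the 15 with an unadjusted p under 0.05, a share close to the 13.9% of all features. Slc7a5, Slc7a6, Slc7a8 and Slc7a11, light chains that pair with Slc3a2, differed by -0.03, -0.03, 0.34 and 0.02 at 9 weeks. The interval of Slc7a8 ran from -0.15 to 0.82 (adjusted p = 0.556 in limma). Slc7a6 stood near 3.0 and Slc7a11 near 2.2, below the array medians.

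Atf3, Cebpb and Ppp1r15a also belong to the immediate early and acute stress genes. Of 13 such genes 0 were called by limma at 9 weeks (median -0.018), near the 1.03% of all features called higher and 0.484% called lower. Klf6 (0.80 ± 0.22, SE; adjusted p = 0.111) and Btg2 (0.98 ± 0.32; adjusted p = 0.178) had the smallest p. Ddit4 and Cebpb respond to glucocorticoids and fasting. Of 11 genes of that response 0 were called (median 0.28), near the same shares of all features. Sgk1 (0.95 ± 0.24; adjusted p = 0.0848) and Cdkn1a (2.46 ± 0.64; adjusted p = 0.0944) had the smallest p. At 9 weeks these 4 genes, 2 of the 13 and 2 of the 11, had an unadjusted p under 0.05, near the 13.9% of all features. At 3 weeks 0 were called by limma, as were 0% of all features. Such a p was found there for 1 of the 13, Egr1 (0.93), and 1 of the 11, G6pc (-0.71), near the 7.41% of all features.

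The genes most like each effector were ranked by Pearson correlation over the 13 livers among 10570 other genes above the median level. The 4 groups enter this measure, so it describes the shared pattern over genotype and age and has no test. Nupr1 was closest to Srprb, a subunit of the signal recognition particle receptor (r = 0.980), Golga2, a Golgi matrix protein (0.954), and Armcx3 (0.947). Trib3 was also closest to Srprb (0.956), then Smim14 (0.955) and Surf4, a cargo receptor of the secretory pathway (0.944). Ddit4 was closest to Nnt (0.932), Tacc2 (0.908) and Ftsj3 (0.905), and Sesn2 to Rab7b (0.930), C9orf72 (0.926) and Neurl4 (0.918). Atf3 was closest to Chpf (0.926), Camk2n2 (0.921) and Prkx (0.920). Chac1 was closest to Stk35 (0.897), Lipa (0.894) and Pfkl (0.879). Ppp1r15a was closest to Ncf1 (0.939), E130309D02Rik (0.884) and Ddhd2 (0.869), Cebpb to Fam102a (0.952), Tor1b (0.943) and Plekha3 (0.938), and Slc3a2 to Cinp (0.900), Wdr74 (0.893) and Pa2g4 (0.883). Nupr1 and Trib3 thus shared their closest gene, and the other 7 effectors shared none among their 3 closest.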

How the data were processed

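RNA of 13 livers was measured on 1 Affymetrix whole-transcript array each. The authors deposited log2 values summarised with RMA (robust multi-array averaging), as the submitters' processing notes state; its version and any genome build are not given in the sources used here. RMA equalises distributions between arrays, so a shift common to most genes is largely removed. The table held 35556 features and no detection calls. Of these, 21218 had 1 gene symbol in the platform annotation, standing for 18820 genes, each represented by its feature with the highest mean. The number of arrays limits the precision.

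Groups and replicate numbers came from the titles; the array descriptions give both 9-week livers titled replicate 3 the number 4. Differences were tested with limma 3.58.1 in R 4.3.3 (a mean per group over all 13 livers, eBayes, two-sided, Benjamini-Hochberg over all features). The procedure was also run on simulated data. These gave every group of a feature the same spread, so unequal spread between groups was not covered. Arrays correlated between 0.9828 and 0.9884 within groups and between 0.9761 and 0.9871 across groups, so no array was a copy of another. The members, lists and tests were chosen with earlier results of these data known. By rule, all 9 effectors were named, and from each list the called genes or the 2 with the smallest p at 9 weeks. Other targets with the promoter motif were named after it was found. Outside the rule, light chains of Slc3a2 were named, and from some lists genes with an unadjusted p under 0.05 at 3 weeks. List symbols were matched to the annotation directly or through RefSeq synonyms. Alternatives were the groups fitted, variance model, array weights, level and symbol filters, normalization, plate column, replicate block and leaving out each liver.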

Additional observations from a re-analysis of the deposited data

Results flagged for a closer look

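Slc3a2, the CD98 heavy chain, met the criterion for opposite directions. Its genotype effect at 9 weeks minus that at 3 weeks was 0.81 on the log2 scale. Relative to the wild-type mean of the age, the 4 LiSel1lKO livers at 3 weeks were at -0.28, -0.07, -0.25 and -0.33, and the 3 at 9 weeks at 0.28, 0.50 and 0.96. The interaction itself did not pass limma's test over all features (adjusted p = 0.265).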

How the results depend on the processing

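The 9-week count of 539 called features became 1 when only that age was fitted, 1106 with array weights, 866 over features above the median level, 294 with the plate column as a block, 184 with the replicate block, and 18 to 1178 with 1 liver left out. Of the 9 effectors 3 were called at that age, 0 in the fit of that age alone, 1 with the replicate block and 1 to 5 with 1 liver left out. Over both ages the 284 features became 640 with array weights, 580 above the median level, 175 with the plate column, 54 with the replicate block and 37 to 876 with 1 liver left out. The 2 effectors called there became 1 with the replicate block and 1 to 2 with 1 liver left out. The 0 features at 3 weeks became 2, and the 0 of the interaction 15, when only features with 1 symbol were tested, and 0 to 1 and 0 to 36 with 1 liver left out. Wild-type ageing gave 672 features, 255 with those groups alone, 440 with the replicate block and 296 to 639 with 1 liver left out. LiSel1lKO ageing gave 55, with 9 in its own groups, 151 with array weights, 109 above the median level, 144 over features with 1 symbol, 35 with arrays centred on their medians, 18 with the plate column, 12 with the replicate block and 6 to 210 with 1 liver left out. The cause was not tested, other than fewer features or livers where the setting says so.

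Signs turned only near 0. Ppp1r15a at 9 weeks was 0.0231 with array weights and -0.16 to 0.0672 with 1 liver left out, and Cebpb -0.12 to 0.0202. At 3 weeks the replicate block gave 0.0479 for Ddit4 and 0.0134 for Sesn2, and 1 liver left out gave -0.30 to 0.18 for Ddit4, -0.23 to 0.0210 for Sesn2 and -0.16 to 0.37 for Atf3. The Chac1 interaction was -0.0502 with array weights, -0.0300 with the replicate block and -0.14 at its lowest with 1 liver left out. The replicate block uses numbers that the groups only share: livers of different groups with the same number had correlations of their deviations from the group means between -0.013 and 0.077, against -0.085 to 0.059 for other numbers. With this block Trib3 had an adjusted p of 0.0641 at 9 weeks and 0.0745 over both ages, and Ddit4 0.0846 at 9 weeks. These numbers are those of the titles, but the array descriptions number both 9-week livers titled replicate 3 as 4. A replicate block with the descriptions' numbers, chosen after seeing the data, gave 152 features at 9 weeks, 65 over both ages, 381 for wild-type ageing and 13 for LiSel1lKO ageing, and 1 effector at 9 weeks and 1 over both ages. Trib3 then had an adjusted p of 0.0682 at both, and Ddit4 0.0854. The Chac1 interaction was -0.0149 and wild-type ageing of Cebpb -0.0065. Averaging all features of a gene changed no value, since each effector had 1. Averages and interaction could not be fitted on fewer groups.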
